A study of Mus musculus with 4 samples.

Results

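Open chromatin at the promoters of long noncoding RNA (lncRNA) genes was examined in mouse keratinocytes, which build the epidermis, after the skin had been treated with Aldara, a cream holding 5% imiquimod, for 8 days. ATAC-seq, in which the Tn5 transposase cuts accessible DNA and leaves sequencing adapters there, had been run on 4 libraries, 2 from wild-type (WT) mice and 2 from mice labelled Mapk8-KO. Mapk8 is the gene of JNK1, a stress-activated kinase. All animals, according to the methods, were C57BL/6 females aged 8 to 12 weeks, the Mapk8-KO mice carried floxed Mapk8 alleles and a Cre recombinase under the keratin 14 promoter, so that the deletion is limited to cells in which this promoter has been active, and both genotypes received the same cream. The cells had been sorted as EpCam+ CD49f hi after cells stained for CD45, CD31 or CD140a were set aside. Peaks of the 4 libraries were merged where they shared at least 1 bp, which gave 82641 regions. A region was kept when it lay within 2 kb of the transcription start site (TSS) of a lncRNA gene of the GENCODE basic annotation and more than 2 kb from every protein-coding TSS. This left 2362 regions, 2.86% of the total, named here lncRNA-only promoters. They were set beside 17167 coding promoters, which lay within 2 kb of a coding TSS, and 60609 distal regions, which lay more than 2 kb from any annotated TSS. All coordinates are on mm10.

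lncRNAs are transcripts that are not translated into protein. Some act in the nucleus, where they bind proteins or shape the chromatin of neighbouring genes, some are precursors from which microRNAs or small nucleolar RNAs (snoRNAs) are cut, and for many it may be the act of transcription, and not the RNA, that matters. Their promoters differ in kind: some are CpG islands like those of housekeeping genes, whereas others resemble enhancers, with few CpG dinucleotides and with sites for tissue-specific or signal-dependent factors. AP-1, a dimer of Fos and Jun proteins, is such a factor, and c-Jun is a substrate of JNK kinases. The question put to the data was what these promoters look like in inflamed epidermis and whether their accessibility differed when JNK1 was missing.

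Sequences of 7 of these promoters show both kinds. Each is the mm10 plus strand from 75 bp before to 75 bp after the strongest summit of the region, read from the reference genome. In the first pair, the promoters of the snoRNA host Snhg8 (chr3:123508389-123508539) and of the microRNA host Mir17hg (chr14:115040812-115040962), capitals mark CpG dinucleotides, of which there are 17 and 18.
Snhg8: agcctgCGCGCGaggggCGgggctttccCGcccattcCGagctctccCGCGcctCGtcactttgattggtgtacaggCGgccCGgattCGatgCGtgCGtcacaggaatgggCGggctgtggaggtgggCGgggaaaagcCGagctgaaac
Mir17hg: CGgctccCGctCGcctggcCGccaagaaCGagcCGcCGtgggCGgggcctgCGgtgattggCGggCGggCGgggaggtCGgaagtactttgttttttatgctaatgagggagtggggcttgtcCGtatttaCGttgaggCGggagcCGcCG
In the promoter of the epidermal microRNA host Mir205hg (chr1:193510192-193510342), capitals mark the single CCAAT-box motif bound by NFY (CCAAT on either strand, followed by 1 of the letters C and G and then 1 of A and G).
Mir205hg: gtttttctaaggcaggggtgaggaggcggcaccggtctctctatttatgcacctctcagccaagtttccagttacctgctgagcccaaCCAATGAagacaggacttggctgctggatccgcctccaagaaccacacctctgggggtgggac
In the promoter of Egfros (chr11:16830719-16830869), an antisense transcript in the gene of the epidermal growth factor receptor, capitals mark the AP-1 motif, TGAGTCA or TGACTCA on either strand. The same holds for Rian (chr12:109627058-109627208), AL805899.2 (chr4:89039014-89039164) and Gm48384 (chr13:59875726-59875876), the 3 lncRNA-only promoters that passed the test between genotypes. This stretch of Rian holds 2 AP-1 motifs, that of AL805899.2 holds 1, and that of Gm48384 holds none.
Egfros: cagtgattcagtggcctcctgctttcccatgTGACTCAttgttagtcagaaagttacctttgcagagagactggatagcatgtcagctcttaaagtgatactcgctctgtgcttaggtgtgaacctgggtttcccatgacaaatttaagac
Rian: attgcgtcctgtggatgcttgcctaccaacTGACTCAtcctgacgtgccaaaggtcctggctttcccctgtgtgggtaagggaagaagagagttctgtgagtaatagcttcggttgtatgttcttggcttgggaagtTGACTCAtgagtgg
AL805899.2: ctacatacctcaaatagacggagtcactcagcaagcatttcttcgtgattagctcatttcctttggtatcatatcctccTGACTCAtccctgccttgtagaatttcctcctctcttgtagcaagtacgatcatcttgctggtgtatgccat
Gm48384: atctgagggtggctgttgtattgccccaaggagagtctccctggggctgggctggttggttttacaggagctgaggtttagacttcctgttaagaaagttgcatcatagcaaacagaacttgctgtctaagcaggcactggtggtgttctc

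The libraries differed in depth more within a genotype than between genotypes. The lists held 49856 to 69927 peaks, and relative to WT 1, the second WT library had a depth of 0.691 and the Mapk8-KO libraries of 1.12 and 0.644. The level used throughout is the summit pileup, the number of fragments stacked at the summit of the strongest peak in a region, recovered from the deposited fold enrichment and −log10 p. Mapk8-KO 2 stood apart from the other libraries in how pileup depended on CpG content, as described further on, so the calls and the sequence contrasts between genotypes are given with and without it. Of 8 keratinocyte marker genes, all had a region within 2 kb of their TSS, and of 6 immune marker genes none had. Regions also lay at 4 of 5 melanocyte, 2 of 5 fibroblast and 3 of 5 endothelial marker genes. Summed over a list, the depth-adjusted pileup in WT 1, WT 2, Mapk8-KO 1 and Mapk8-KO 2 was 418, 388, 605 and 517 for keratinocyte, 258, 263, 284 and 318 for melanocyte, 63, 69.5, 73.5 and 69.9 for fibroblast and 106, 129, 125 and 94.7 for endothelial genes. Both Mapk8-KO libraries were higher for the first 3 lists, and the endothelial list overlapped. The part of other cell types in the results was not tested. Peak lists do not show whether Mapk8 was deleted in the cells sampled. In RNA-seq of keratinocytes sorted in the same way, the paper reports a truncated Mapk8 mRNA in the mice with the Cre recombinase.

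The lncRNA-only promoters took their names from 1922 genes, by the nearest lncRNA TSS. By gene type, 1421 regions belonged to lincRNAs (intergenic lncRNAs), 626 to antisense transcripts, 249 to processed transcripts, 61 to sense intronic transcripts and 5 to bidirectional promoter lncRNAs. The summit lay outside coding genes in 1748 regions, in an intron of a coding gene in 537 and in an exon in 77. The nearest coding TSS was a median of 37462 bp away. Among 8242 lncRNA genes that had a TSS far enough from coding TSSs, 1968 had such a region (23.9%, 95% Wilson interval 23.0 to 24.8), whereas 64.7% of 21951 protein-coding genes had a region within 2 kb of a TSS. Processed transcripts were the most often covered of the larger types, at 36.4% of 500 genes. Intervals on shares cover counting error only, not the variation between mice.

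The annotation limits the class. Of the 2362 regions, 152 lay within 2 kb of the start of a RefSeq messenger RNA, 51 of these of a known and not a predicted one. One is the promoter of 4932412D23Rik (chr16:42874986-42876375), with a pileup of 314, 224, 342 and 228 fragments in WT 1, WT 2, Mapk8-KO 1 and Mapk8-KO 2, which contains the start of a predicted transcript of the coding gene Zbtb20. CpG-rich regions made up 28.9% of these 152 and 9.68% of the others. With all 152 left out, a choice made after seeing the data, the AP-1 and CpG differences described below kept their direction.

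Only part of the class sat directly on an annotated start. The TSS lay inside 813 regions (34.4%), and 707 regions lay more than 1 kb from it. The strongest summit was within 200 bp of the nearest TSS of its class in 27.8% of lncRNA-only promoters and in 60.3% of coding promoters. The summit was upstream of the TSS in 53.3% of lncRNA-only promoters and in 56.3% of coding promoters. Regions that contained the TSS were wider, with a median of 619 bp against 373 bp for those that did not. They were also called in all 4 libraries more often, in 69.7% against 43.2% (difference 26.6 points, 95% Newcombe interval 22.5 to 30.5).

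**Figure D1:**
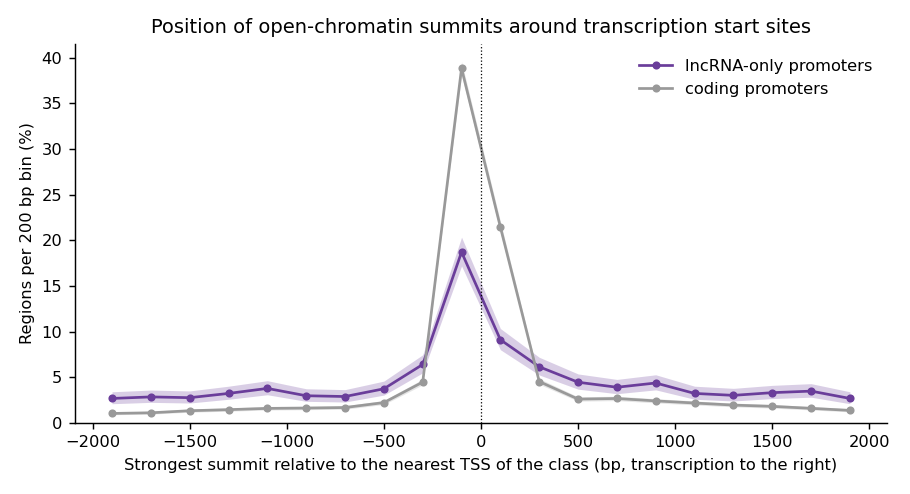
Position of the strongest summit of each region relative to the nearest TSS of its class (bp, x axis), as the percent of regions per 200 bp bin (y axis), with 95% Wilson intervals as bands. The peak at the TSS is lower for the 2362 lncRNA-only promoters than for the 17167 coding promoters, and the flanks are higher.

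As a class, lncRNA-only promoters lay between coding promoters and distal regions in most features. Of the 2362 regions, 1236 (52.3%, interval 50.3 to 54.3) were called in all 4 libraries, 345 in 3, 339 in 2 and 442 (18.7%) in 1. Over all regions, 48.6% were called in all 4 libraries and 21.7% in 1. The share called in all 4 differed by −18.7 points from that of coding promoters (95% Newcombe interval −20.8 to −16.6) and by 10.0 points from that of distal regions (interval 7.99 to 12.1). The median region spanned 441 bp, against 666 bp for coding promoters and 371 bp for distal regions. In the 1236 regions called in all libraries the summit pileup had a median of 48 and 33 fragments in the WT libraries and 54 and 29.5 in the Mapk8-KO libraries, each in the order 1, 2. The corresponding medians of coding promoters were 56, 39, 64 and 40. The log2 difference, lncRNA-only minus coding, was −0.22, −0.24, −0.25 and −0.44 in these libraries, a mean ratio of 0.820. The direction was the same in all 4, and the two-sided exact sign-flip permutation p was 0.13, the smallest that 4 libraries allow. Against distal regions the mean log2 difference was 0.08 ± 0.05 (SD, n = 4; exact sign-flip permutation p = 0.13), and it turned to −0.03 with fold enrichment in place of pileup. Where only CpG-rich regions that contain the TSS were compared, the difference from coding promoters shrank to −0.10 ± 0.03 (SD, n = 4; exact sign-flip permutation p = 0.13).

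CpG-rich sequence, defined as an observed/expected CpG ratio of at least 0.6 and a GC content of at least 50% within 250 bp of the summit, was uncommon. It was found at 258 lncRNA-only promoters (10.9%, interval 9.73 to 12.2), at 60.4% of coding promoters, at 1.76% of distal regions and at 14.4% of all regions. The difference was −49.5 points from coding promoters (interval −50.9 to −47.9) and 9.16 points from distal regions (interval 7.96 to 10.5). Even with the TSS inside the region, 21.4% of lncRNA-only promoters were CpG-rich, a difference of −55.6 points from coding promoters with the TSS inside (interval −58.4 to −52.6).

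AP-1 motifs were common. Within 100 bp of the summit, TGAGTCA or TGACTCA occurred at 552 lncRNA-only promoters (23.4%, interval 21.7 to 25.1), against 8.70% of coding promoters, 28.0% of distal regions and 23.7% of all regions. The difference was 14.7 points from coding promoters (interval 13.0 to 16.5) and −4.63 points from distal regions (interval −6.33 to −2.85). The motif for SP and KLF factors, GGGCGGG, showed the opposite order, at 11.1% of lncRNA-only promoters, 36.1% of coding promoters, 4.14% of distal regions and 11.1% of all regions. The ETS motif CCGGAAG was held by 3.05% of lncRNA-only promoters, 10.0% of coding promoters and 3.10% of all regions. The CTCF core motif, the site of the insulator protein, was held by 9.19% of lncRNA-only promoters, 10.3% of coding promoters and 8.37% of all regions. Its share differed from that of coding promoters by −1.10 points (interval −2.29 to 0.210) and from that of distal regions by 1.40 points (interval 0.277 to 2.65). All motifs were sought on both strands as exact letters, matches of different motifs may share bases, and a match is not a bound site.

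**Figure D2:**
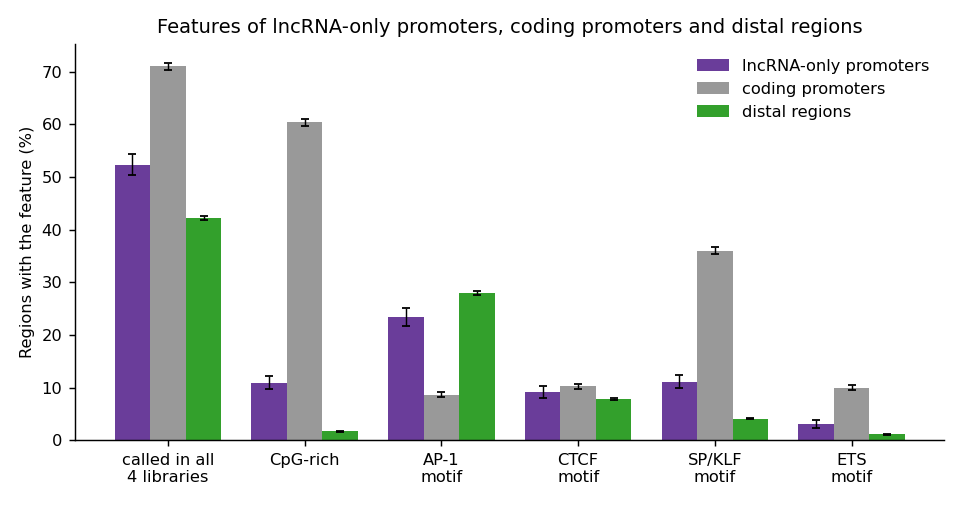
Percent of regions (y axis, from 0) with each feature in lncRNA-only promoters, coding promoters and distal regions, with 95% Wilson intervals as error bars. For CpG-rich sequence, SP/KLF and ETS motifs the lncRNA-only class lies between the other classes and far below coding promoters, and for AP-1 it lies close to distal regions, at 23.4% against 28.0%.

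The class was not uniform. The 174 regions that were CpG-rich and contained the TSS were called in all 4 libraries in 81.6% of cases. AP-1 motifs were rare there, at 2.87% (interval 1.23 to 6.55), and SP/KLF motifs common, at 45.4%. The 639 regions that contained the TSS but were not CpG-rich held AP-1 motifs in 25% of cases and SP/KLF motifs in 9.08%. For the 1549 regions with the TSS outside, the shares were 25% and 8.07%.

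The highest pileups of the class, by the lowest library, came first from a repeated locus. Regions at Gm26917 and AY036118 on chromosome 17, side by side (chr17:39843041-39847283 and chr17:39847467-39848799), reached 1071 to 1751 fragments in every library. RefSeq places the 18S ribosomal RNA pseudogene Rn18s-rs5 across them, so reads from the many ribosomal DNA copies cannot be told apart from reads of these lncRNA promoters, and the values are uncertain. Next were 4932412D23Rik, given above, Gm31793 (chr10:130541848-130542599), with 338, 212, 354 and 213 fragments in the same library order, and Gm26901 (chr1:7397086-7398451), with 233, 178, 273 and 191. None of these 5 differed between genotypes in the limma test (adjusted p from 0.82 to 0.99).

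Well-known lncRNA genes were taken from 10 lists, and 47 of their promoters were in the class, counting 1 region for each gene. Of these, 25 were CpG-rich (53.2%, against 10.9% of the whole class). The TSS lay inside 31, 7 held an AP-1 motif and 33 were called in all 4 libraries. In the whole class these shares were 34.4%, 23.4% and 52.3%. For a gene with several regions, that with the highest lowest-library pileup was taken, whereas the class shares cover every region. The named regions are thus not a typical sample of the class, and how far this choice set the contrast was not tested.

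The lncRNAs of nuclear bodies and genome architecture were open in part. Firre, an X-linked lncRNA that binds several chromosomes, had a region over its TSS with 68, 30, 78 and 43 fragments in WT 1, WT 2, Mapk8-KO 1 and Mapk8-KO 2. Malat1, an abundant RNA of nuclear speckles, had 4 regions, of which 1 was called in all libraries. That region, CpG-rich and 570 bp from a TSS, had 44, 29, 32 and 36. Neat1, the scaffold of paraspeckles, had 2 within 2 kb of a TSS. The more widely called of these, nearest to the TSS of Frmd8os, was missing from WT 2 and had 47, 61 and 45 fragments in the others. No region lay within 2 kb of a Meg3 TSS. Of this group, the regions of Firre and Malat1 were called in all libraries, and both overlapped between genotypes when centred on all regions. Centred on each library's median, 1 of them had both Mapk8-KO libraries above both WT libraries, as in 24.6% of all tested regions.

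At the X inactivation centre, the promoters of Ftx and Jpx, which act on Xist, were CpG-rich and contained the TSS. Jpx had 52, 35, 66 and 29 fragments in the same order. Xist, the RNA that coats the inactive X, had a region 1120 bp from its TSS with 39, 30, 45 and 23 fragments. Tsix, its antisense partner, was called in WT 1 alone, at 14. Centred on all regions, none of the 3 regions of this group called in all libraries separated the genotypes. Centred on coding promoters, both WT libraries were above both Mapk8-KO libraries at 1 of them, as in 28.8% of all tested regions.

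Among imprinted lncRNAs, which are transcribed from one parental allele, 5 of 9 had a region of the class and H19, Meg3, Mirg and Nespas had none. Rian, a snoRNA host of the Dlk1-Dio3 domain, passed the test between genotypes and is described further on. The promoter of Kcnq1ot1, an antisense lncRNA inside Kcnq1, had 35, 26, 52 and 39 fragments, or 35.0, 37.6, 46.6 and 60.6 after division by relative depth. Both Mapk8-KO libraries were higher, and the log2 difference WT minus Mapk8-KO was −0.55 ± 0.25 (SE), with an adjusted p of 0.42 in limma, so that it did not pass the test. It was −0.36 without Mapk8-KO 2. Airn, the antisense lncRNA of Igf2r, had 35, 29, 40 and 22 fragments and Peg13 had 51, 31, 49 and 32, and both overlapped between genotypes when centred on all regions. Of the 4 imprinted regions called in all libraries, 1 then had both WT libraries higher and 1 the reverse. Centred on coding promoters, and also with fold enrichment, these were 2 and 1. Both WT libraries were higher in 28.8% and 18% of all tested regions under those 2 scalings.

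The snoRNA hosts carry snoRNAs in the introns of their transcripts, and 9 of the 11 with a region of the class had one called in all libraries. Of these 9 promoters, 8 were CpG-rich. Snhg8 (chr3:123508087-123509096) had 178, 149, 265 and 156 fragments, the highest of the listed genes. Snhg5 followed with 105, 99, 157 and 102, and Snhg6 had 63, 47, 91 and 51. After division by relative depth, Snhg8 stood at 178 and 216 in WT and 238 and 242 in Mapk8-KO, and both Mapk8-KO libraries were above both WT libraries. This order held for 5 of the 9 (Snhg3, Snhg6, Snhg8, Snhg12 and Snhg16) and the reverse order for none. With other scalings it held for 3 to 5, and centred on coding promoters it held for 4 with 1 in the reverse order. The background is the 20.3% of all tested regions in which both Mapk8-KO libraries were above both WT libraries, and 29.8% of coding promoters. The median log2 difference of the 9 was −0.28, against −0.01 over all regions tested, and it was −0.18 to −0.33 under the other scalings. It was −0.12 without WT 1, −0.43 without WT 2, −0.29 without Mapk8-KO 1 and −0.22 without Mapk8-KO 2. The median was −0.14 over all CpG-rich lncRNA-only promoters tested and −0.11 over coding promoters, and the part of CpG content in the values of these 9 was not tested beyond the GC correction, with which their median was −0.19. None passed the test, with adjusted p of 0.52 for Snhg8, 0.55 for Snhg16 and 0.63 for Snhg6. At Gas5, Snhg1, Snhg9, Snhg10, Snhg18 and Zfas1 the regions lay within 2 kb of a coding TSS and are not in the class.

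Of the microRNA hosts, 9 had a region. Mir17hg, the host of the miR-17 to miR-92a cluster, had a region (chr14:115040519-115042527) with 117, 94, 156 and 99 fragments. Mir22hg had 102, 81, 112 and 68, and Mir99ahg, with 6 regions in the class, had 76, 61, 100 and 54 at the strongest. Mir155hg, the host of an inflammatory microRNA, had 36, 19, 36 and 23. Of the 8 hosts called in all libraries, with 1 region each, both Mapk8-KO libraries were above both WT libraries at Mir17hg, and the other 7 overlapped. Over all 17 regions of the listed hosts called in all libraries, 3 had that order and 1 the reverse. The background is 20.3% of all tested regions in each direction. Centred on coding promoters, 1 host had that order and 3 the reverse, against 11.9% and 28.8% of all tested regions. With fold enrichment these were 2 and 1, and centred on each library's median 2 and 0. No region lay at Mir142hg, the host of a microRNA of blood cells.

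The 3 epidermal lncRNAs with a region of the class were open in every library. Mir205hg (chr1:193510107-193510532), host of miR-205, which is abundant in squamous epithelia, had 92, 71, 107 and 62 fragments. After division by depth these were 92.0, 103, 95.9 and 96.3, and the log2 difference between genotypes was 0.02 ± 0.18 (SE; limma adjusted p = 0.98). The gene had 3 regions in the class, of which this was the strongest by its lowest library. At another of them, also called in all libraries, both WT libraries were above both Mapk8-KO libraries, as in 20.3% of all regions tested. Dancr, which restrains epidermal differentiation in human cells, had 133, 90, 140 and 95. Egfros (chr11:16830263-16831091, in an intron of Egfr) had 113, 62, 136 and 74. After division by depth both Mapk8-KO libraries were above both WT libraries, an order lost when centred on coding promoters, with a log2 difference of −0.23 ± 0.18 (SE; limma adjusted p = 0.69). It was −0.40 without WT 1 and −0.07 without WT 2. Of the epidermal list, H19 and Plet1os had no region.

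Stress-related and immune lncRNAs covered a wide range. Trp53cor1, also called lincRNA-p21, had 27, 17, 20 and 25 fragments in the library order used above. Oip5os1, also called Cyrano, had 45, 37, 59 and 36. Pvt1, downstream of Myc, was not called in WT 2. Mirt1 had 122, 78, 146 and 54, the highest of the immune list, and Gm14005, which RefSeq names Morrbid, had 43, 37, 54 and 24. Miat was the only listed promoter of these 2 groups in which the genotypes separated at this scaling, with both WT libraries higher and a log2 difference of 0.27 (limma adjusted p = 0.74). It was 0.13 without Mapk8-KO 2 and 0.41 without Mapk8-KO 1. With fold enrichment it overlapped, at 11.8, 12.9, 12.9 and 10.2. With fold enrichment, or centred on each library's median, 1 other promoter of the growth and stress list had both Mapk8-KO libraries higher.

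Hox cluster and neural lncRNAs gave few and weak regions. The 4 Hox-associated genes with a region, Haglr, Halr1, Hoxb3os and Hoxd3os1, had 8 to 28 fragments where called, and no region was called in all libraries. Halr1 was called in both WT libraries, at 18 and 14 fragments, and in neither Mapk8-KO library. Of 15 neural and developmental genes, Sox2ot and Pantr2 had a region of the class, each called in 1 library. Hotair and Hottip had none within 2 kb of a TSS.

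**Figure D3:**
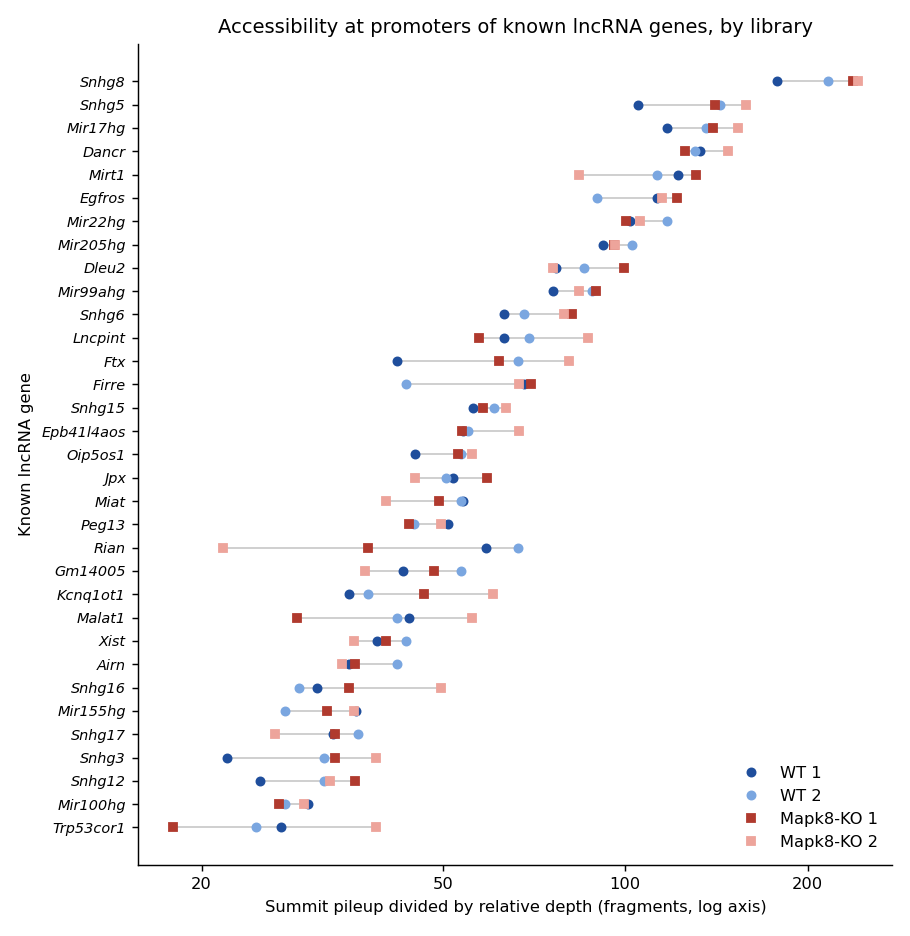
Summit pileup divided by relative depth (fragments, log axis) for the 33 known lncRNA promoters called in all 4 libraries, 1 row for each gene, circles for WT and squares for Mapk8-KO, with a grey line over the range. Most rows overlap between genotypes; at Rian both WT libraries lie above both Mapk8-KO libraries, and at Snhg8 the order is reversed.

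Whether lncRNA-only promoters differed between genotypes was asked first of the lists as a whole. They held 2.94% ± 0.05 of WT peaks and 3.00% ± 0.08 of Mapk8-KO peaks (SD, n = 2 each; exact permutation p = 0.667). No comparison of 2 against 2 libraries can give less than 0.33 in this test. In bulk cells, a lower pileup from fewer cells with an open promoter cannot be told apart from less opening in each cell.

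Among regions called in one genotype only, a region was counted as WT-specific when both WT lists held it and neither Mapk8-KO list did, and as Mapk8-KO-specific in the opposite case. WT-specific lncRNA-only promoters numbered 51 (2.16%, against 2.17% of all regions), and Mapk8-KO-specific ones 39 (1.65%, against 1.65% of all regions). Both shares were at the background. They were weak regions, with a median pileup of 17 and 15.5 fragments. The strongest WT-specific ones were at Gm17767 (43 and 30 fragments in the WT libraries), Gm10457 (45 and 29), Mir99ahg (31 and 28, a region other than the strong one above), 4732471J01Rik (44 and 27) and Gm26569 (33 and 24). On the Mapk8-KO side they were at Gm12735 (40 and 37 fragments in the Mapk8-KO libraries), Gm30400 (41 and 24), Gm32486 (44 and 23), AU016765 (35 and 23) and Gm29561 (35 and 21). The region at Gm12735 overlaps the pseudogene Fau-ps2, and 55.2% of the bases around its summit are masked as repeats, so reads from other copies cannot be told apart there.

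AP-1 content was compared between these groups after the data had been seen. AP-1 motifs were held by 14 of the 51 WT-specific lncRNA-only promoters (27.5%) and by 0 of the 39 Mapk8-KO-specific ones, which allows a share of up to 7.69% by 3 counts of the total (Wilson upper limit 8.97%). The difference was 27.5 points (95% Newcombe interval 13.8 to 40.9, counting error only). Over all regions the shares were 35.9% of 1796 and 7.39% of 1367. Without Mapk8-KO 2, in the same merged regions, the definition loosens, and the shares were 22.6% of 62 and 9.95% of 211, a difference of 12.6 points (interval 2.77 to 24.9). Leaving out WT 1, WT 2 or Mapk8-KO 1 gave 20, 18.2 and 32.4 points.

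The 1236 lncRNA-only promoters called in all 4 libraries were tested with limma on log2 pileup, centred for depth, within a fit over 40159 regions with Benjamini-Hochberg adjustment over all of them. The other 1126 had no value in at least 1 library and were not tested. At an adjusted p under 0.05, 3 were higher in WT (0.243%, against 0.214% of all regions tested) and 0 higher in Mapk8-KO (against 0.0199%). At an unadjusted p under 0.05 there were 113, or 9.14%, against 10.4% of all regions. The median log2 difference WT minus Mapk8-KO was −0.02, with quartiles of −0.21 and 0.18. Both WT libraries were above both Mapk8-KO libraries in 211 regions (17.1%, against 20.3% of all tested), and the reverse held in 262 (21.2%, against 20.3%). Centred on coding promoters in place of all regions, these counts were 318 and 162, or 25.7% and 13.1%, against 28.8% and 11.9% of all tested, and the median difference was 0.09, against 0.10 for all regions. More regions had both Mapk8-KO libraries higher than the reverse under the other 4 scalings, and fewer under this one. Under both references the share with both WT libraries higher was below that of all regions. In data simulated for this comparison, the test recovered 92% of 4-fold and 16% of 2-fold changes in 100 regions each, so smaller changes were mostly out of reach there. The simulated counts had the same assumed dispersion in every region and library, not estimated from these data, and no dependence on CpG content. Recovery in the real libraries may therefore differ.

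Gm48384 is a lincRNA on chromosome 13. The region (chr13:59875512-59876114) lies outside coding genes, 1870 bp from its TSS, and had 81, 80, 71 and 14 fragments in the library order used above. After division by relative depth these were 81.0, 116, 63.6 and 21.7. Both WT libraries were higher, but the distance between the Mapk8-KO libraries exceeded that between WT 1 and Mapk8-KO 1. The log2 difference was 1.38 ± 0.28 (SE; limma adjusted p = 0.021).

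AL805899.2 is a lincRNA on the minus strand of chromosome 4, 97828 bp from the TSS of Mtap. The region (chr4:89038833-89039294) contains its TSS and had 64, 63, 47 and 21 fragments, or 64.0, 91.2, 42.1 and 32.6 after division by depth. The genotypes did not overlap, and the log2 difference was 1.04 ± 0.23 (SE; limma adjusted p = 0.038).

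The Rian region (chr12:109626812-109627312) lies inside the Rian gene, 1677 bp from the nearest annotated Rian TSS. It had 59, 46, 42 and 14 fragments, or 59.0, 66.6, 37.7 and 21.7 after division by depth. Mapk8-KO 2 was again lowest, and the log2 difference was 1.13 ± 0.26 (SE; limma adjusted p = 0.049). The gene has 2 further regions in the class, which were not called in all libraries and so were not tested. The one that contains a Rian TSS (chr12:109650368-109650770) had 25, 33 and 14 fragments in WT 1, WT 2 and Mapk8-KO 1 and was not called in Mapk8-KO 2.

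All 3 calls were lost without Mapk8-KO 2 or without WT 2. Without Mapk8-KO 2 the log2 differences of Gm48384, AL805899.2 and Rian were 0.61, 0.86 and 0.74 and the adjusted p 0.58, 0.20 and 0.58 (limma, 1 Mapk8-KO library, which is assumed to vary like the WT libraries). Without WT 2 the log2 differences were 1.12, 0.79 and 1.04 and the adjusted p 0.32, 0.68 and 0.50 in limma. Rian was also lost without WT 1, at a log2 difference of 1.22 (limma adjusted p = 0.14), where the other 2 passed. Over the class, 0 lncRNA-only promoters passed limma's test without Mapk8-KO 2 or without WT 2, and 5.10% and 5.99% had an unadjusted p under 0.05, against 5.63% and 6.44% of all regions. Without Mapk8-KO 1, 43 were higher in WT (3.48%, against 3.93% of all regions) and 9 in Mapk8-KO (0.728%, against 0.944%). No call was made either with fold enrichment in place of pileup, where the 3 differences were 0.58, 0.56 and 0.68, nor when centred on coding promoters, where they were 1.48, 1.15 and 1.24, nor without the variance trend. Over all 40159 regions, each of these settings also gave 0 calls in either direction.

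**Figure D4:**
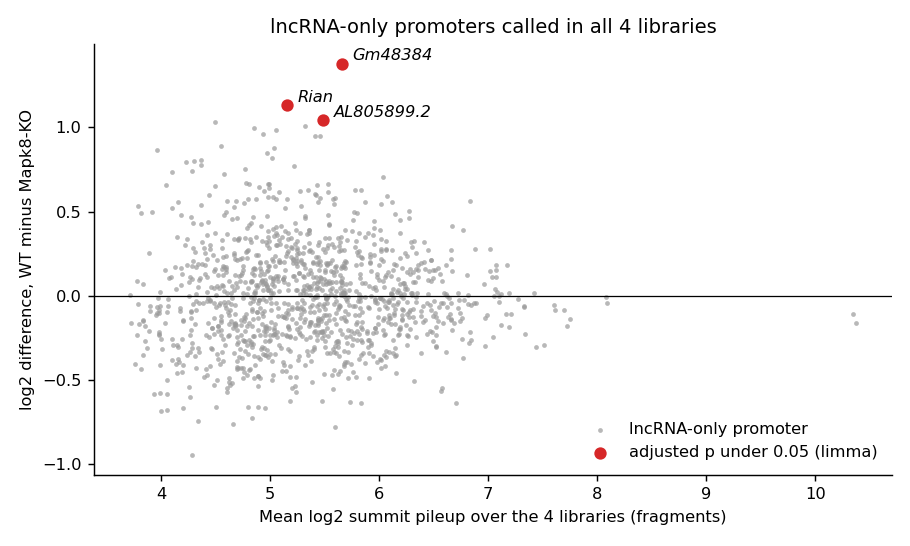
log2 difference WT minus Mapk8-KO (y axis) against the mean log2 summit pileup of the 4 libraries (x axis) for the 1236 lncRNA-only promoters called in all of them. The 3 red points passed an adjusted p of 0.05, all higher in WT, and the pair at the far right are the ribosomal DNA regions at Gm26917 and AY036118.

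The largest gaps between the genotypes, by the distance from the lowest library of one to the highest of the other, gave further examples that did not pass the test. 2810407A14Rik (chr16:87783867-87784997, 84922 bp from the Bach1 TSS) had 75, 49, 41 and 25 fragments, or 75, 70.9, 36.8 and 38.8 after division by depth. Here the libraries of each genotype were close to each other and the groups apart, with a log2 difference of 0.95 ± 0.22 (SE; limma adjusted p = 0.054). Gm34256, 2610318M16Rik and Gm47216, with Rian, made up the other 4 towards WT. In the opposite direction Gm29340 and Gm44780 had the widest gaps, with log2 differences of −0.95 and −0.74 (limma adjusted p = 0.18 and 0.32). The next, A830008E24Rik (chr1:154117573-154118868), had 46, 29, 76 and 54 fragments, or 46.0, 42.0, 68.1 and 83.8, and a log2 difference of −0.78 ± 0.22 (SE; limma adjusted p = 0.12). Gm13667 and Gm42565 followed, with log2 differences of −0.66 and −0.76 and adjusted p of 0.39 and 0.28 in limma.

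Sequence went with the level in each library. Among the 1236 regions, those with an AP-1 motif (310) had a higher median log2 pileup than those without (926), by 0.30 and 0.25 in the WT libraries and by 0.23 and 0.05 in the Mapk8-KO libraries. The difference was 0.27 ± 0.03 in WT and 0.14 ± 0.13 in Mapk8-KO (SD, n = 2 each), higher in both WT libraries than in either Mapk8-KO library (exact permutation p = 0.33, the smallest possible). Without Mapk8-KO 2 the gap between genotypes fell from 0.13 to 0.04, and without Mapk8-KO 1 it rose to 0.22. It was 0.04 with fold enrichment in place of pileup, 0.10 within 500 bp of the TSS and 0.09 with the TSS inside. In each of these last settings the libraries of the genotypes overlapped. Both WT libraries were above both Mapk8-KO libraries in 78 of the 310 regions with the motif (25.2%) and in 133 of the 926 without it (14.4%), against 20.3% of all regions tested.

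CpG content gave the reverse pattern. The 190 CpG-rich regions were higher than the other 1046 by 0.15 and 0.17 in the WT libraries and by 0.19 and 0.50 in the Mapk8-KO libraries on the log2 scale. WT libraries and Mapk8-KO 1 were close together, and Mapk8-KO 2 stood apart. The gap between genotypes was −0.19 (exact permutation p = 0.33), −0.04 without Mapk8-KO 2 and −0.34 without Mapk8-KO 1. It was −0.09 with fold enrichment in place of pileup, and −0.07 after a correction for GC content within each library. The part of GC content in the other differences between genotypes was tested only by the GC correction, under which Gm48384 and AL805899.2 still passed the test (limma adjusted p = 0.015 and 0.049) and Rian did not (0.061).

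**Figure D5:**
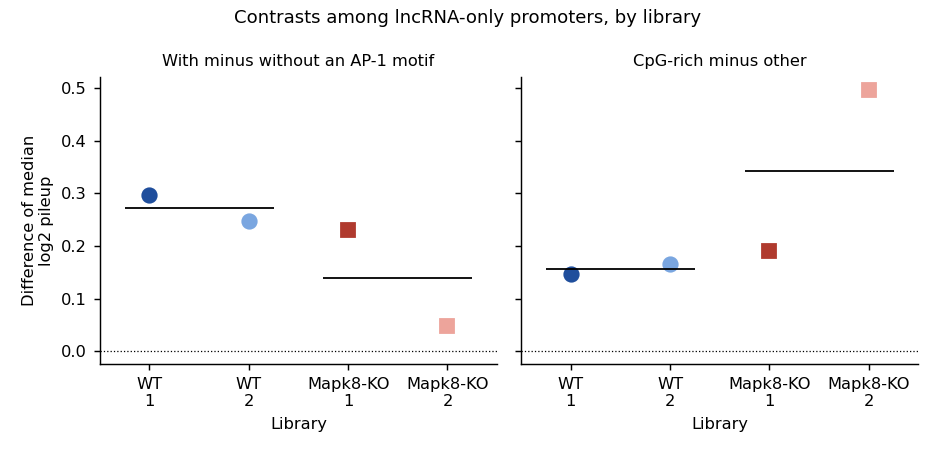
Difference of median log2 pileup in each library (y axis) between lncRNA-only promoters with and without an AP-1 motif (left) and between CpG-rich and other ones (right), circles for WT, squares for Mapk8-KO, lines for the mean of each genotype. Mapk8-KO 2 is lowest on the left at 0.05 and highest on the right at 0.50, whereas Mapk8-KO 1 lies near the WT libraries.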

How the data were processed

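ATAC-seq libraries of sorted keratinocytes, 2 WT and 2 Mapk8-KO, were analysed. The study's methods state that reads were aligned to mm10 with Bowtie2, that samtools discarded multi-mapped and low-quality ones, and that peaks were called with MACS2. One list was deposited per library, and no control is stated. The submitters' processing notes also name STAR 2.5.3 and Trimmomatic 0.36. No shift for the Tn5 cut site is stated. The deposited lists give each peak's ends and summit, a fold enrichment over local background (a ratio), −log10 p and −log10 q values, and a score, all as the authors' peak caller wrote them. Total read numbers are not given in the sources used here.

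The summit pileup was solved from the deposited fold and −log10 p, and at least 99.996% of peaks gave a whole number to within 0.05 fragments. The solver was tested on simulated peaks. Depth was the median, over regions called in all libraries, of log2 pileup minus the region's mean. GENCODE vM21 basic transcripts (GRCm38) gave the TSSs. limma 3.58.1 (R 4.3.3) with a variance trend was used. Shares have Wilson and differences Newcombe 95% intervals, and values per library have two-sided exact permutation tests. The study's DESeq2 test needs read counts and was not run. The labels call the libraries separate samples but do not name animals, so p-values measure the spread between these samples, which may be technical.

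Named regions were all listed lncRNAs with a region (for several, that with the highest lowest-library pileup), the 5 with the highest lowest-library pileup, limma calls, the 5 strongest specific to each genotype, and the 5 largest gaps in each direction. The members and lists were chosen with earlier results of these data known. List names were matched by symbol or RefSeq synonym. Alternatives varied TSS distance, coding exclusion, peak threshold, list length, cover, windows, measure, centring, GC correction, replicate block and libraries left out. The AP-1 and CpG contrasts between genotypes, centring on each library's own median, the exclusion of RefSeq starts the list medians with a library left out and the comparison of CpG-rich regions that contain the TSS were added after the data had been seen.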

Additional observations from a re-analysis of the deposited data

How the results depend on the processing

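With 2 libraries per genotype and recovered summit pileups, small changes between genotypes were out of reach, regions missing from a library had no value there, and depth differed within each genotype. The wider coding exclusion gave 2146 regions and the exclusion of RefSeq starts 2210. With the former, the CTCF difference was −1.62 points from coding promoters (interval −2.83 to −0.278) and 0.878 from distal regions (interval −0.260 to 2.16), so that 0 left the first interval and entered the second. With the latter, the CpG-rich difference from distal regions was 7.92 points.

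The number of lncRNA-only promoters was 1267 within 500 bp of the TSS and 813 with the TSS inside, and 2187 to 2330 with 1 library left out. The share called in all libraries was 55.2% at 1 kb, 59.0% at 500 bp, 69.7% with the TSS inside, 56.8% with lists of equal length, 40.9% with a cover of 50%, and 56.8% to 62.4% with 1 library left out. WT-specific regions numbered 18 and 8, and Mapk8-KO-specific ones 20 and 7, at 500 bp and with the TSS inside. With 1 library left out and the peaks merged anew they numbered 62 to 261 and 57 to 212. In the regions merged from all 4 libraries, the AP-1 difference between WT-specific and Mapk8-KO-specific ones was 12.6 to 32.4 points with 1 library left out.

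In the comparisons with the TSS inside, only the lncRNA class was restricted and coding promoters were all kept. With both classes restricted, the AP-1 difference was 15.8 points and the CpG-rich difference −55.6. Against coding promoters, the AP-1 difference was 12.0 and 16.6 points with windows of 50 and 200 bp, 18.1 in regions called in all 4 libraries and 11.6 with the TSS inside. Against distal regions it was −2.34 at 50 bp, −7.49 in regions called in all 4 and −7.71 with the TSS inside. The CTCF difference from coding promoters was −3.69 at 200 bp and −3.15 in regions called in all 4, and that from distal regions 0.207 at 50 bp. The CpG-rich difference from coding promoters was −46.2 points with a 100 bp window, −36.0 with a ratio of 0.75, −56.1 in regions called in all 4, −53.4 at 1 kb, −44.0 at 500 bp and −39.0 with the TSS inside. In the same order, that from distal regions was 11.7, 6.75, 12.9, 12.7, 14.6 and 19.6.

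limma called 0 lncRNA-only promoters higher in WT without the variance trend, with fold enrichment or centred on coding promoters, and in each case 0 of all regions tested. Centred on each library's median, it called 6 higher in WT and 2 higher in Mapk8-KO, where all regions gave 199 and 44. With 1 library left out, 0 to 43 were higher in WT and 0 to 9 higher in Mapk8-KO, and over all regions 3 to 1577 and 1 to 379. The difference between genotypes of the library medians turned from 0.024 to −0.024 centred on each library's median and to −0.024 with the TSS inside. Centred on coding promoters it was 0.128. With 1 library left out it ran from −0.016 (without Mapk8-KO 2) to 0.064 (without Mapk8-KO 1). The level minus distal regions turned to −0.031 with fold enrichment. With 1 library left out, the log2 difference ran from −0.38 to 0.58 at Malat1, −0.30 to 0.092 at Dleu2, −0.39 to 0.21 at Lncpint, −0.59 to 0.52 at Trp53cor1 and −0.16 to 0.49 at Mirt1, in each case with the ends set by the Mapk8-KO library left out, and that of Lncpint was 0.19 with fold enrichment. The cause was not tested.

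The labels number the libraries 1 and 2 in both genotypes without saying that a number was shared in the experiment, and the change from replicate 1 to 2 correlated little between genotypes across regions (Pearson r = 0.039). With the replicate number as a block, 7 lncRNA-only promoters were higher in WT and 1 in Mapk8-KO. With the block and the GC correction these were 7 (0.566%) and 2 (0.162%), against 229 (0.570%) and 65 (0.162%) of all regions. Over all regions the block gave 273 and 36, against 86 and 8 without it.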
